A study of Homo sapiens with 8 samples.

Results

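The 10 genes described here encode enzymes and regulators of the antioxidant defence of the cell, and they were followed in EndoC-βH5, an established human beta-cell line. They were chosen by name from the deposited expression table: the superoxide dismutases SOD1 and SOD2, catalase (CAT), the glutathione peroxidases GPX1 and GPX4, the peroxiredoxins PRDX1 and PRDX3, thioredoxin (TXN), its binding protein TXNIP, and the quinone reductase NQO1. All 10 were listed among the 16525 genes of the table, and all were above 0.5 CPM, the level of its filter, in each of the 8 libraries. TXNIP is not an enzyme and TXN is a redox carrier protein rather than a peroxidase, so the group is named here by its members. RNA was sequenced from 4 control libraries of cells left without cytokines and from 4 libraries of cells given IL-1β, IFNγ and TNFα together, all collected at 48 h. Both groups were the same line in the same medium, so the comparison covers 1 cell line. The labels do not state whether the 4 libraries of a group came from separate cultures, so the p-values measure the spread between these libraries, which may be technical.

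Superoxide, formed mainly by the respiratory chain and by oxidases, is turned into hydrogen peroxide by SOD1 in the cytosol and by SOD2 in the mitochondrial matrix. Catalase in peroxisomes, glutathione peroxidases and peroxiredoxins then remove the peroxide, and thioredoxins recharge peroxiredoxins with electrons from NADPH. TXNIP binds reduced thioredoxin and limits its activity, and in beta cells it is known as a gene strongly raised by glucose. NQO1 reduces quinones and is a classical target of NRF2, the transcription factor that answers oxidative stress. Beta cells are known for low catalase and glutathione peroxidase activity compared with other tissues, and for a strong induction of SOD2 by inflammatory cytokines.

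With cytokines, SOD2 rose, TXNIP and NQO1 fell, and the other 7 genes did not pass the test. A gene was called when the absolute log2 fold change was above 0.5 and the FDR was below 0.05 in limma, over all 16525 genes. Of the 10 members, 1 was called higher, where 9.52% of all genes were called higher, and 2 were called lower, where 17.5% of all genes were. In either direction 27.0% of all genes were called, against 3 of the 10 members, so that the share of called members lies near that of the table as a whole. The median log2 fold change was -0.12 over the members and -0.17 over all genes. Values are CPM, the reads of a gene scaled to a common library total. Since most genes shifted slightly downwards on this scale, changes were also computed with TMM, a scaling that centres the bulk of genes near no change. With TMM the median of all genes was -0.02 and that of the members 0.03, and the same 3 members passed the test.

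**Figure D1:**
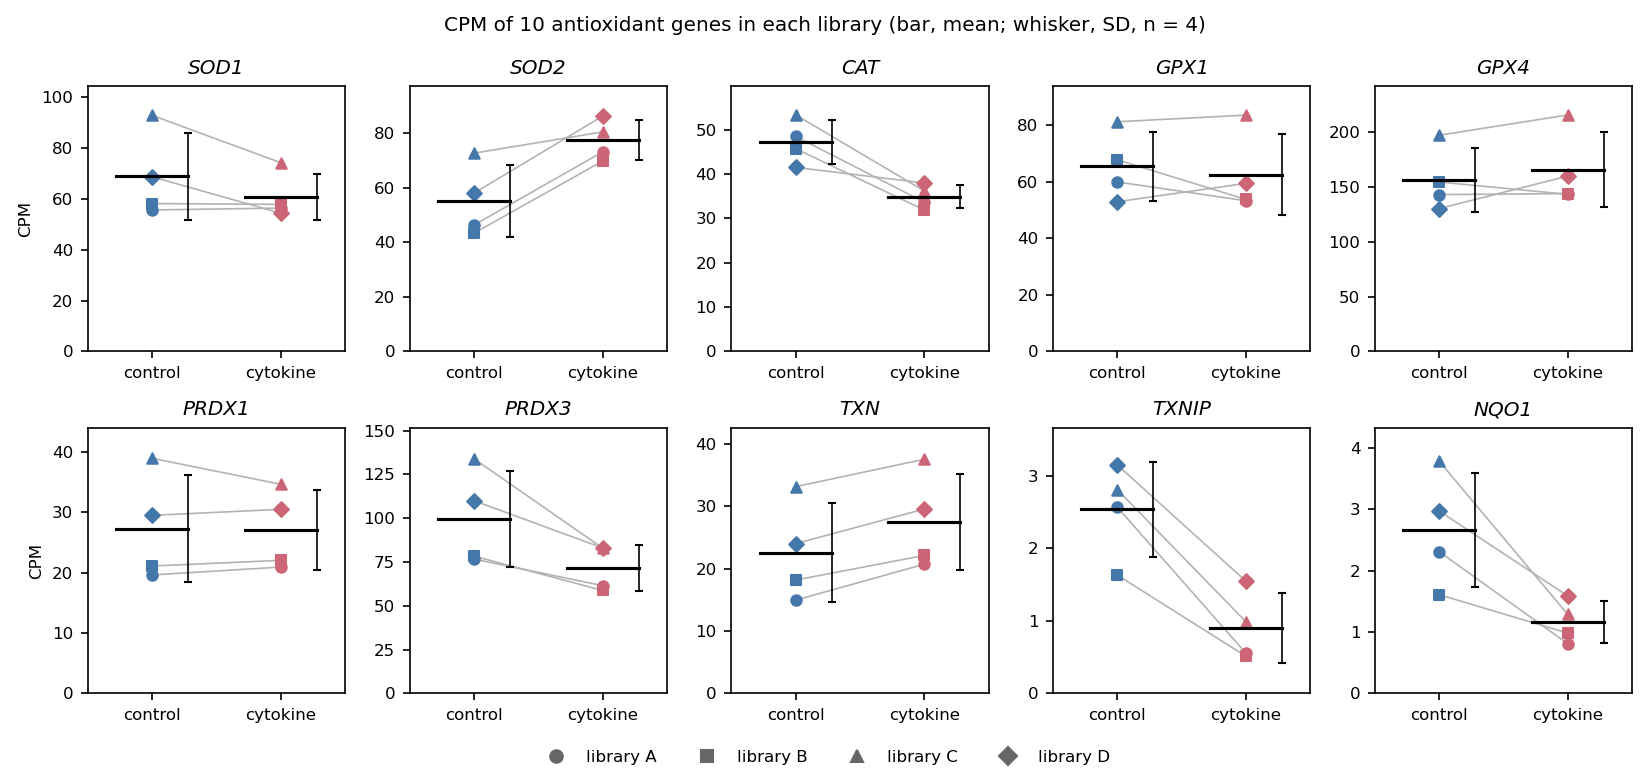
CPM of each of the 10 genes in the 4 control libraries (blue) and the 4 cytokine libraries (red), with the vertical axis of each panel starting at 0. Grey lines join libraries that share the first part of their name (A to D), black bars are means and whiskers are SDs (n = 4). In the panels of TXNIP, NQO1 and CAT every cytokine library lies below every control library, and for SOD2 each line rises.

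The names of the columns carried no replicate number. The column names of a control and a cytokine library began alike in each of 4 cases, and these pairs are called A, B, C and D. The names of A and B end alike (series 1), and those of C and D end alike (series 2). Libraries held 36956294 to 40117636 reads on listed genes in controls and 36577438 to 39348935 with cytokines. The library totals, by which reads are divided to give CPM, were 46767972 to 51145634 reads. On these totals 3 reads, the limit that a count of 0 allows, correspond to 0.0587 to 0.0641 CPM (counting error only). All 12 beta-cell markers checked were in the table, among them CHGA, and 7 of them were called lower with cytokines and 0 higher. With TMM 4 were called lower, MAFA, SLC30A8, PDX1 and ISL1, and NKX6-1 was called higher. The somatostatin gene SST was present at 1219 ± 868 CPM in controls and 1216 ± 766 with cytokines (SD, n = 4). Of 12 markers of other pancreas cells 7 were in the table and 1 was called lower (CPA1). Of 13 markers of leukocytes, endothelium and fibroblasts, 2 were in the table (PDGFRB and COL1A1), and neither was called. In bulk RNA fewer cells of a type cannot be told apart from less RNA per cell.

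SOD2, the mitochondrial manganese enzyme, was the single member called higher. The gene (ENSG00000112096) lies at chr6:159669057-159745186 on the minus strand (GRCh38, GENCODE 29). In the control libraries A, B, C and D it measured 46.2, 43.3, 72.6 and 58.0 CPM, and in the cytokine libraries 73.0, 69.7, 80.3 and 86.1 CPM. Every cytokine library was above the control library of its pair, but control C was above cytokine B, so the groups overlapped. The mean went from 55.0 ± 13.3 to 77.3 ± 7.38 CPM (SD, n = 4), and the log2 fold change was 0.52 (SE 0.17, limma FDR 0.0356), just past the fold threshold. The exact 2-sided permutation test of 4 against 4 libraries gave p = 0.0571, where the smallest p that this design allows is 0.0286. With TMM the log2 fold change was 0.67 (SE 0.13, limma FDR 0.00317). The increase was 0.67 in series 1 and 0.36 in series 2 on the log2 scale.

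SOD1, the copper-zinc enzyme of the cytosol (ENSG00000142168, chr21:31659622-31668931, plus strand), did not pass the test. It ranged from 55.7 to 92.9 CPM in controls and from 54.4 to 74.3 CPM with cytokines, with a log2 fold change of -0.16 (95% interval -0.54 to 0.22, limma FDR 0.521). The pairs gave 0.02, -0.01, -0.32 and -0.34 on the log2 scale, close to no change in series 1 and lower in series 2. As a description, the ratio of SOD2 to SOD1 CPM was 0.743 to 0.843 in the 4 controls. It was 1.08 to 1.58 in the 4 cytokine libraries, without overlap. CPM are not divided by gene length, so this ratio does not tell which transcript was more abundant.

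Of the peroxide-removing enzymes none was called. Catalase came closest. CAT (ENSG00000121691, chr11:34438925-34472062, plus strand) measured 48.5, 45.7, 53.3 and 41.5 CPM in control libraries A to D and 33.7, 31.9, 36.2 and 38.0 CPM in cytokine libraries A to D. Each cytokine library lay below each control, with the smallest distance in pair D. The mean was 47.3 ± 4.97 CPM in controls and 34.9 ± 2.69 CPM with cytokines (SD, n = 4), with a log2 fold change of -0.43 (SE 0.12, 95% interval -0.69 to -0.17, limma FDR 0.0183, exact permutation p = 0.0286), below the fold threshold. With TMM the log2 fold change was -0.28 with a limma FDR of 0.0793, so that neither threshold was passed in that fit. With the pair as a block the limma FDR was 0.000455 on the CPM scale and 0.00818 with TMM. The fold stayed below the threshold on both scales.

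PRDX3, the mitochondrial peroxiredoxin (ENSG00000165672, chr10:119167703-119178833, minus strand), measured 76.7, 78.4, 134 and 110 CPM in control libraries A to D and 61.6, 58.8, 83.0 and 83.1 CPM in cytokine libraries. Within each pair the cytokine library was lower, while the groups overlapped because series 2 was higher than series 1 in both conditions. The log2 fold change was -0.46 (SE 0.20, 95% interval -0.90 to -0.02, limma FDR 0.108). With the pair as a block in limma the FDR was 6.92e-05, and the fold remained under the threshold, so PRDX3 was called in neither fit. With that block 11.6% of all genes were called higher and 23.8% lower, and the members called were again SOD2, TXNIP and NQO1.

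The cytosolic partner PRDX1 (ENSG00000117450, chr1:45511036-45523047, minus strand) ranged from 19.6 to 38.9 CPM in controls and from 20.9 to 34.6 CPM with cytokines, with a log2 fold change of 0.01 (95% interval -0.51 to 0.53, limma FDR 0.982). The interval is wide, and changes of up to the threshold in both directions lie within it. The ratio of PRDX3 to PRDX1 CPM was 3.44 to 3.91 in controls and 2.40 to 2.94 with cytokines, without overlap. PRDX1 shares 379 of 1522 exon bases with MMACHC on the opposite strand.

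The glutathione peroxidases did not pass the test. GPX1, which reduces soluble peroxides (ENSG00000233276, chr3:49357171-49358600, minus strand), ranged from 53.0 to 81.3 CPM in controls and from 53.3 to 83.7 CPM with cytokines, with a log2 fold change of -0.07 on the CPM scale (95% interval -0.46 to 0.32, limma FDR 0.789) and 0.08 with TMM. GPX4, which reduces lipid peroxides in membranes (ENSG00000167468, chr19:1103926-1106791, plus strand), ranged from 130 to 197 CPM in controls and from 143 to 216 CPM with cytokines, with a log2 fold change of 0.08 (95% interval -0.29 to 0.46, limma FDR 0.756). For both genes library C was the highest of its group, and the spread between libraries was far larger than the distance between the group means.

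TXN is an electron donor of peroxiredoxins (ENSG00000136810, chr9:110243811-110256640, minus strand). It measured 14.9, 18.2, 33.1 and 24.0 CPM in control libraries A to D and 20.7, 22.1, 37.5 and 29.5 CPM in cytokine libraries. It was higher with cytokines in each pair, and the groups overlapped widely. The log2 fold change was 0.31 (SE 0.26, 95% interval -0.26 to 0.87, limma FDR 0.402) and 0.46 with TMM (limma FDR 0.150). With the pair as a block the limma FDR was 0.00522 at the same fold, under the threshold.

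TXNIP, the thioredoxin-binding arrestin (ENSG00000265972, chr1:145992435-145996600, minus strand), showed the largest change of the 10. It measured 2.57, 1.63, 2.81 and 3.15 CPM in control libraries A to D and 0.554, 0.513, 0.986 and 1.55 CPM in cytokine libraries. All cytokine libraries lay below all controls, with cytokine D just under control B. The mean fell by 64.5%, from 2.54 ± 0.651 to 0.900 ± 0.482 CPM (SD, n = 4), and the log2 fold change was -1.48 (SE 0.35, limma FDR 0.00837, exact permutation p = 0.0286, the smallest possible). These values rest on 77 to 161 reads in controls and 24 to 77 reads with cytokines, and TXNIP and NQO1 had the fewest reads of the 10. The pairs gave -2.03, -1.50, -1.42 and -0.98 on the log2 scale. With TMM the log2 fold change was -1.34 (limma FDR 0.0117). The ratio of TXNIP to TXN CPM was 0.0847 to 0.172 in controls and 0.0232 to 0.0524 with cytokines, without overlap.

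NQO1 (ENSG00000181019, chr16:69706996-69726951, minus strand) measured 2.31, 1.61, 3.78 and 2.97 CPM in control libraries A to D and 0.809, 0.982, 1.29 and 1.59 CPM in cytokine libraries. Cytokine D and control B were almost level, at 1.59 and 1.61 CPM, and no cytokine library reached above a control. The mean fell by 56.3%, from 2.67 ± 0.928 to 1.17 ± 0.343 CPM (SD, n = 4), and the log2 fold change was -1.10 (SE 0.30, limma FDR 0.0174, exact permutation p = 0.0286). The values rest on 76 to 190 reads in controls and 38 to 79 reads with cytokines. NQO1 shares 575 of 3254 exon bases with the antisense gene AC092115.2, which was not in the table. Without control D the limma FDR was 0.0505 and without cytokine A it was 0.0516, so the call of NQO1 depended on each of these libraries.

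By pairs, 4 members were lower with cytokines in each of the 4 pairs (CAT, PRDX3, TXNIP and NQO1) and 2 were higher in each (SOD2 and TXN). Of all genes 43.6% were lower in each pair and 22.2% higher, so both counts lie near the shares of the whole table. Without overlap between the groups, 3 members were lower (CAT, TXNIP and NQO1), where 21.9% of all genes were, and 0 members were higher, where 10.8% of all genes were. In limma without a block, the call of SOD2 was lost when 1 of 6 libraries was left out. The FDR was then 0.0849 without control A, 0.104 without control B, 0.0548 without control D, 0.0621 without cytokine A, 0.0702 without cytokine C and 0.0917 without cytokine D. In the same fits TXNIP was called without any 1 of the 8 libraries. With all 8 libraries and the pair as a block, the limma FDR of SOD2 was 0.00013 on the CPM scale and 4.24e-06 with TMM.

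**Figure D2:**
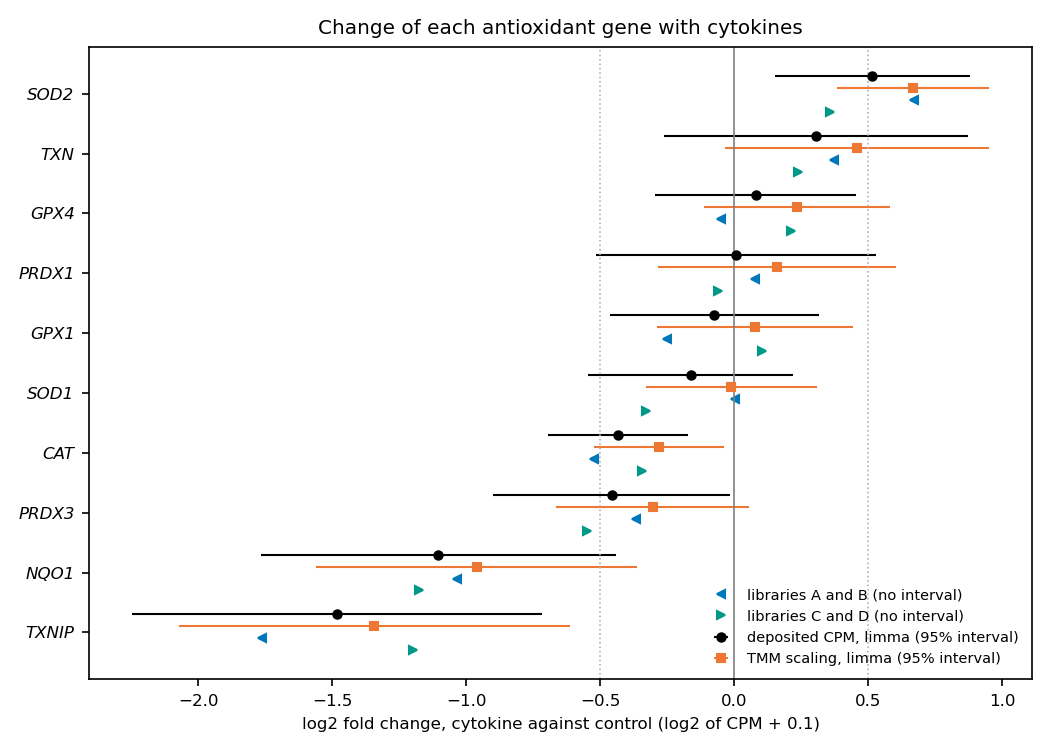
Log2 fold change of each gene, cytokine against control, on the log2(CPM + 0.1) scale, from the deposited CPM (black circles) and with TMM scaling (orange squares), with 95% limma intervals, and for libraries A and B and libraries C and D alone (triangles, no interval). Dotted lines mark the fold threshold of 0.5. The intervals of TXNIP and NQO1 lie below 0 and that of SOD2 above 0 on both scales.

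The change with cytokines was compared between series 1 and series 2 with an interaction term in limma. No member passed (FDR 0.999 for each of the 10), and 0 members had an unadjusted p under 0.05. Over all genes 5 had an interaction FDR below 0.05. The level itself differed between the series. All 10 members were higher in series 2 at any p, a count for which the share of all genes was not computed. At a limma FDR below 0.05, 6 of them were higher (SOD2, PRDX1, PRDX3, TXN, TXNIP and NQO1), where 25.7% of all genes were higher and 11.8% lower. The difference between series was 0.38 for SOD2, 0.66 for PRDX1, 0.56 for PRDX3, 0.70 for TXN, 0.80 for TXNIP and 0.70 for NQO1 on the log2 scale. For PRDX1, PRDX3 and TXN it was larger than the difference between control and cytokine libraries.

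To compare the genes with each other, reads were divided by exon length and scaled to TPM, which puts every library on the same total. In controls the order was GPX4 (298 ± 79.3 TPM), GPX1 (176 ± 44.4), SOD1 (134 ± 48.4), PRDX3 (115 ± 45.7), TXN (78.1 ± 36.4), PRDX1 (70.8 ± 31.3), CAT (50.5 ± 8.94), SOD2 (13.1 ± 4.75), NQO1 (3.24 ± 1.49) and TXNIP (2.74 ± 1.01), each mean ± SD of 4 libraries in TPM. GPX4 was thus the most abundant of the 10 transcripts, and TXNIP and NQO1 were the scarcest. Of neighbours in that order, the ranges of CAT and SOD2 and those of SOD2 and NQO1 were apart, and all others overlapped. In every control library PRDX3 lay above TXN, and in every cytokine library TXN (102 ± 38.4 TPM) lay above PRDX3 (88.4 ± 26.3 TPM). This switch depends on the length used: per kilobase of the principal transcript the mean of PRDX3 was above that of TXN in controls (62.7 against 26.0 CPM) and with cytokines (45.0 against 31.6 CPM). With cytokines the ranges of GPX4 and GPX1, of PRDX1 and CAT, of CAT and SOD2, and of SOD2 and NQO1 were apart.

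The place of SOD2 in this order depends on its annotated exons, which add up to 16493 bases, against 1142 to 3625 bases for the other 9. Of these, 845 are shared with a second entry of the same name on the same strand and 298 with WTAP on the opposite strand. When the length of the longest principal transcript was used in place of all exons, GPX1 moved from place 2 to place 4 in controls. SOD2, NQO1 and TXNIP kept places 8, 9 and 10. For SOD2 that length is 14266 bases, not far from all exons, so this change could hardly move its place. Shorter SOD2 transcripts were not tried. Processed copies named after TXN (7), PRDX3 (4), SOD1 (3), GPX1 (2), SOD2 (1) and PRDX1 (1) are annotated in GENCODE 29, and the default of the counting tool leaves out reads that map to several places, so the levels of these genes may be understated. This was not tested.

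**Figure D3:**
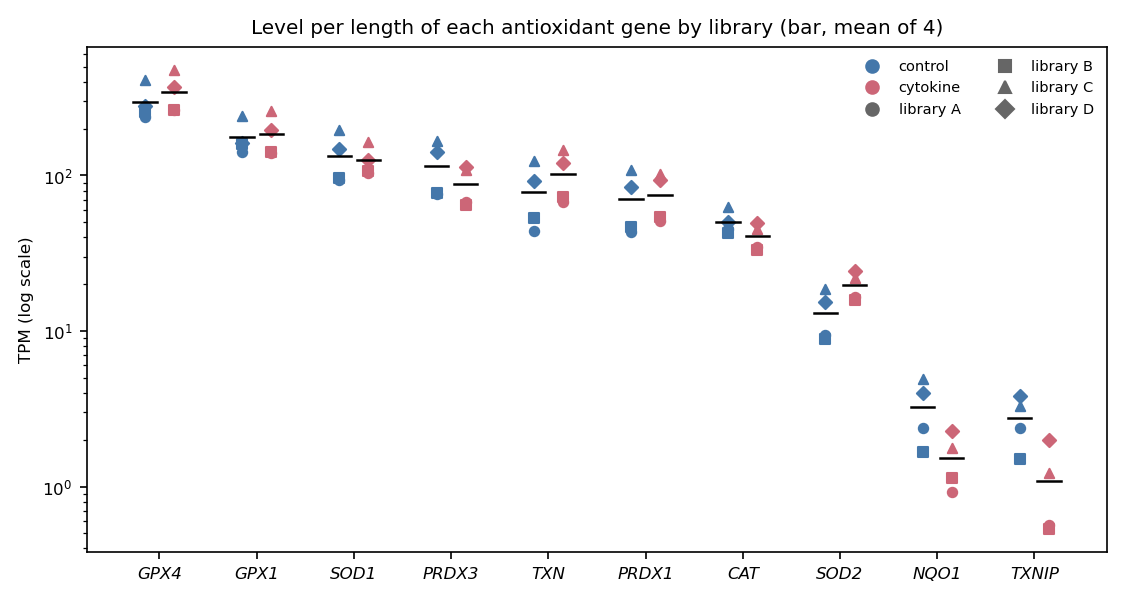
TPM of each gene by library on a log scale, controls in blue and cytokine libraries in red, in the order of the control means (black bars, mean of 4 libraries). 7 of the genes lie close together between CAT and GPX4, and SOD2, NQO1 and TXNIP lie below them in turn.

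Promoter windows of 250 bases before the transcription start were taken from RefSeq (GRCh38.p14), in which 8 of the 10 members had 14 windows. Stretches of 2 of them are shown, for the member that fell most and the member that rose, each cut to the part outside annotated exons. The TXNIP stretch (chr1:145996601-145996829, minus strand, 5′ to 3′) ends 22 bases before the start. Its capitals mark the fixed letters of a pair of E-box-like elements, CACGNG, separated by 5 bases, which in this promoter is known as the carbohydrate response element. The SOD2 stretch (chr6:159693329-159693491, minus strand, 5′ to 3′) ends 88 bases before 1 of its 4 starts. Its capitals mark GC boxes (GGGCGG, 3 matches, of which a pair shares letters), the element bound by SP1.
TXNIP: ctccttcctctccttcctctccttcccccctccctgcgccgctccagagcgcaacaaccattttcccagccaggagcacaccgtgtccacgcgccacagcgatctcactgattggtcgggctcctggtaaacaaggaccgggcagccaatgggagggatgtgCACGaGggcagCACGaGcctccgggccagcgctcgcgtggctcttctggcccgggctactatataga
SOD2: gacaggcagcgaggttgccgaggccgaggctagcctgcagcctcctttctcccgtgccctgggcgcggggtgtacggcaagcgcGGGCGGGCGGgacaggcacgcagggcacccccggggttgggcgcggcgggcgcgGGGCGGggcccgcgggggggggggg

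The pair of E-box-like elements was found in 0.0456% of all 35116 windows, and the window of TXNIP was the single one of the members to hold it. A GC box was found in 12 of the 14 member windows and in 42.6% of all windows. On either strand the antioxidant response element TGACNNNGC (10.9% of all windows), the STAT site TTCNNNGAA (6.57%) and the interferon-response core GAAANNGAA (6.88%) were found in 0 of the 14 member windows. The E-box CACGTG (6.34% of all windows) was in the windows of GPX1 and PRDX3. These are matches of letters in short windows of 250 bases, and they were set against no readout. Elements further upstream, of NQO1 or any other member, could not be found by this search. The paired element and the GC box were added to the search after the data were seen.

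The other genes of redox metabolism were counted on lists of general knowledge. With the members left out, 129 of 154 genes were in the table, of which 12 were called higher and 23 lower, with a median log2 fold change of -0.18. Without SLC7A11, the 1 gene of these that was below 0.5 CPM in every control, 11 of 128 were called higher. With TMM the counts were 18 higher and 17 lower, and with the pair as a block 19 higher and 28 lower. Among the 16525 genes, 1574 (9.52%) were called higher and 2896 (17.5%) lower, and with TMM 2154 higher and 1933 lower. On the CPM scale the 12 and 23 of 129 lie near these shares. The wider redox genes were thus called about as often as genes in general. Counts of the single lists below were not tested against these shares.

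**Figure D4:**
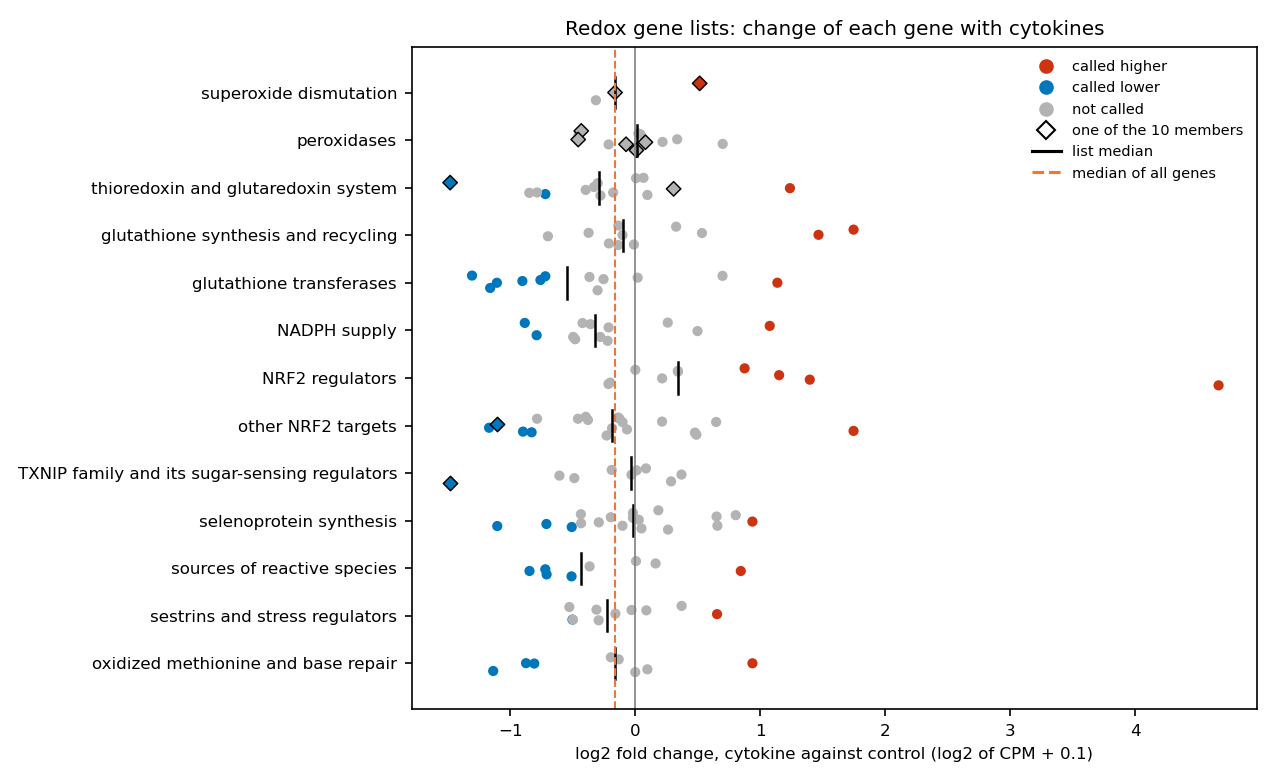
Log2 fold change, cytokine against control (log2 of CPM + 0.1), of every measured gene of 13 redox lists, with genes called higher in red, called lower in blue and not called in grey. Diamonds are members, black bars are list medians and the dashed line is the median of all genes (-0.17). Among the lists, the glutathione transferases hold 6 genes called lower, and the NRF2 regulators hold 4 called higher and 0 called lower.

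In the list of superoxide dismutation 3 of 4 genes were in the table, and SOD2 was the only one called. The third, CCS, which delivers copper to SOD1, measured 22.8 ± 4.41 CPM in controls and 18.1 ± 1.42 CPM with cytokines (log2 fold change -0.31, limma FDR 0.151). Of 12 peroxidases measured, members included, 0 were called in either direction. PRDX2, the most abundant of them, measured 234 ± 36.5 CPM in controls and 170 ± 15.9 CPM with cytokines (SD, n = 4), with a log2 fold change of -0.45 and a limma FDR of 0.0294, below the fold threshold as CAT was.

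In the thioredoxin and glutaredoxin system, 1 of 14 genes was called higher and 2 lower, TXNIP among the latter. GLRX, the cytosolic glutaredoxin that removes glutathione from proteins, rose from 7.40 ± 2.27 to 17.1 ± 1.31 CPM (log2 fold change 1.24, limma FDR 0.000886). TXNRD2, the thioredoxin reductase of mitochondria, fell from 28.2 ± 1.45 to 17.2 ± 2.16 CPM (log2 fold change -0.72, limma FDR 0.00166). Among the 9 genes of the TXNIP family and its sugar-sensing regulators, TXNIP was the only one called on the CPM scale, and with TMM the glucose transporter gene SLC2A1, named after its value was seen, was called higher too. MLXIPL, which encodes the sugar-sensing factor ChREBP that binds the paired element shown above, measured 829 ± 312 CPM in controls and 540 ± 190 CPM with cytokines and did not pass the test (log2 fold change -0.61, limma FDR 0.166).

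Of 10 NRF2 regulators 4 were called higher and 0 lower. The small MAF protein gene MAFF went from 1.61 ± 0.217 to 46.4 ± 22.5 CPM (log2 fold change 4.67, limma FDR 4.25e-07). SQSTM1, an autophagy receptor that binds KEAP1, rose from 162 ± 27.4 to 445 ± 171 CPM (log2 fold change 1.40), and BACH1, a repressor of NRF2 targets, from 14.1 ± 4.12 to 31.3 ± 8.44 CPM (log2 fold change 1.15). NQO1 stood among 19 measured NRF2 targets, of which 1 was called higher and 4 lower. The other falls were those of PIR (log2 fold change -1.17), AKR1C1 (-0.90) and TRIM16L (-0.83), the last of which was named after its value was seen. SLC7A11, the cystine transporter, was called higher at 0.0949 ± 0.0793 CPM in controls and 0.568 ± 0.312 CPM with cytokines, close to the limit of 3 reads in controls. It was above 0.5 CPM, the level that the filter of the table asks for, in 0 of the 4 controls and 2 of the 4 cytokine libraries. The filter asks for 4 samples, so these libraries alone do not account for its listing, and the 4 unused columns may have counted. Since no control reached that level, the filter favoured a call in this direction.

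Of 12 glutathione transferases measured, 6 were called lower and 1 higher, with a median log2 fold change of -0.54 (-0.39 with TMM). GSTM2 fell from 51.6 ± 9.06 to 21.3 ± 5.75 CPM, GSTM4 from 16.3 ± 2.82 to 7.51 ± 2.55 CPM, and GSTO2 from 13.9 ± 1.77 to 6.43 ± 1.13 CPM. GSTK1, a mitochondrial and peroxisomal enzyme, rose from 49.4 ± 4.43 to 109 ± 6.62 CPM (log2 fold change 1.14, limma FDR 2.67e-05). Of 11 genes of glutathione synthesis and recycling 2 were called higher and 0 lower, namely SLC7A11, with the same limit of the filter, and CHAC1, which degrades glutathione (4.08 ± 0.916 to 11.4 ± 2.68 CPM).

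Among 12 genes of NADPH supply, MTHFD2 rose (log2 fold change 1.08), and ME1 (-0.88) and IDH1 (-0.79) fell. Of 18 genes of selenoprotein synthesis and selenoproteins, MSRB1 rose (log2 fold change 0.94), and SELENOP (-1.10), SEPHS1 (-0.71) and EEFSEC (-0.51) fell. Among 8 sources of reactive species NOS3 rose (log2 fold change 0.84) and 4 genes fell, including MAOB (-0.85), MAOA (-0.72) and ERO1B (-0.71). Of 10 sestrins and stress regulators, TP53INP1 rose (log2 fold change 0.65) and SESN2 fell (-0.50), and of 8 genes of oxidized methionine and base repair MSRB1 rose while NUDT1 (-1.14), NEIL1 (-0.87) and OGG1 (-0.81) fell. With TMM the genes called lower in these 5 lists numbered 1, 2, 2, 0 and 2. The most abundant genes of the lists not yet named were TXNL1 (log2 fold change 0.10), SLC3A2 (0.53), TKT (-0.48), FTH1 (-0.19), SELENON (-0.29), STK25 (-0.16) and APEX1 (-0.20), and none of these 7 was called in limma.

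For the 3 called members, the genes with the most similar pattern over the 8 libraries were searched among the 14683 genes whose mean reached 1 CPM, by Pearson correlation of log2(CPM + 0.1). For SOD2 they were TMED7 (r = 0.986), PARP4 (0.985) and SPTLC2 (0.982). For TXNIP they were SERTAD4 (r = 0.994), APAF1 (0.991) and ZNF304 (0.984), and for NQO1 they were FZD3 (r = 0.993), MGMT (0.991) and MRAP2 (0.990). These are the highest of many values over 8 libraries that share treatment and series, and they are given as a description.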

How the data were processed

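RNA of 8 libraries (4 control and 4 cytokine) was sequenced with a strand-specific kit. Reads were aligned with TopHat2 2.1.1 to GRCh38 and counted with HTSeq 0.9.1 at default parameters on Ensembl release 107, per the labels and the study's methods. The deposited table holds CPM of those genes that the authors found above 0.5 CPM in 4 or more samples. CPM divide reads by the library total, and 20.1% to 26.6% of each total fell outside the listed genes. Another 4 columns of values were not used. All CPM values (100%) were whole multiples of 1 read within 0.001, so reads could be recovered.

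The main test was limma 3.58.1 (R 4.3.3) with an intensity trend on log2(CPM + 0.1), all 8 libraries and no block, adjusted over 16525 genes. Fold changes on this scale understate those of low genes. On the recovered reads the quasi-likelihood test of edgeR 4.0.16 called 4067 genes with TMM and 4442 without, and DESeq2 1.42.0 called 4503, against 4470 in limma. Scaling, pseudocount, filter, trend and threshold were varied, each library was left out, and a series term was added. edgeR without TMM, the block with TMM scaling and principal-transcript lengths were chosen after seeing the data. All tools were tested on simulated data.

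Whether paired libraries deviate together was checked. The correlation of their deviations, over the 14683 genes whose mean reached 1 CPM, was 0.57 in pair A, 0.59 in B, 0.80 in C and 0.74 in D. Crossing A and B gave 0.57 and 0.59 too, so the check does not tell A from B. The pairing comes from the column names. Any pair of libraries of a group gave a chi-square of at least 5.88 per gene, far above sampling noise. It was 5.88 for cytokine A and B and 13.2 for control A and B. All other pairs gave 66.3 to 293, so A and B were much more alike than other libraries of a group.

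The members and lists were chosen with earlier results of these data known. Named genes are the members, in each list up to 3 called genes of largest rise and fall and the most abundant gene, and the 3 genes most like each called member. Lengths and coordinates come from GENCODE 29 (16167 genes matched). Figures were drawn with matplotlib 3.10.9.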

Additional observations from a re-analysis of the deposited data

Results flagged for a closer look

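GPX1 was lower with cytokines in pairs A and B (log2 -0.17 and -0.33) and higher in pairs C and D (0.04 and 0.17), so that every pair of one series moved the opposite way to those of the other. The interaction of treatment with series was 0.36 on the log2 scale (SE 0.28), with an unadjusted p of 0.237 and an FDR of 0.999 in limma, so the difference between the series was tested and did not pass. Of the 20 groups of 4 libraries formed by the 10 genes and 2 conditions, 0 had a library that stood apart from the other 3 by Dixon's test.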

How the results depend on the processing

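The direction of SOD2, CAT, PRDX3, TXN, TXNIP and NQO1 was kept under all alternatives run, with log2 fold changes of 0.36 to 0.72, -0.52 to -0.22, -0.57 to -0.25, 0.13 to 0.52, -1.76 to -0.91 and -1.31 to -0.74. GPX1 turned positive with TMM (0.0785), median-of-ratios (0.0884), GAPDH (0.14) and TPM (0.0436) scaling, edgeR with TMM (0.0857), DESeq2 (0.0983), and the replicate block in edgeR with TMM (0.0800) and in limma with TMM (0.0785). SOD1 turned positive with median-of-ratios (0.000355) and GAPDH (0.0470) scaling, and PRDX1 negative in edgeR without TMM (-0.0142). With 1 library left out GPX1 ran from -0.22 to 0.0357, GPX4 from -0.0523 to 0.20 and PRDX1 from -0.13 to 0.20. Of the members, 0 were called higher with TPM, without the intensity trend and in edgeR without TMM, 1 was called lower with quantile normalization, and 0 with TPM, where the FDR was 0.152 for SOD2, 0.0558 for TXNIP and 0.115 for NQO1. In the wider redox lists the genes called higher numbered 19 with median-of-ratios, 21 with GAPDH, 23 in DESeq2, 19 with the replicate block in limma, 24 with the block in edgeR with TMM, 23 with the block in limma with TMM and 19 with a series term, and those called lower 14 with GAPDH and 9 with TPM. Over all genes 2673 were called with TPM, against 4470. With each library left out in turn the counts ran from 0 to 1 members higher, 1 to 2 members lower, 3899 to 4339 genes in all, and 11 to 17 and 19 to 26 wider redox genes higher and lower. The replicate block changed no call of a member. The causes of these differences were not tested. TXNIP and NQO1 had the fewest reads, and 4 libraries a group limit all intervals.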
